A study of Mus musculus with 12 samples.

Results

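Cyclic AMP (cAMP) is made from ATP by adenylyl cyclases, which G proteins switch on and off downstream of hormone receptors. Phosphodiesterases (PDEs) break down cAMP, cyclic GMP (cGMP) or both. In the β-cell, cAMP acts through protein kinase A (PKA) and through the Epac exchange factors for the small GTPase Rap, and it amplifies insulin release that glucose has started. The incretin hormones raise islet cAMP through the receptors that many diabetes drugs address. The genes described here are the rows of the islet count table whose mouse symbols are those of adenylyl cyclases (Adcy followed by a number), PDEs (Pde, a number and a letter from a to d), PKA subunits (Prkar and Prkac) and the cAMP-regulated Epac factors (Rapgef3 and Rapgef4). The rule used names alone and took 42 of 37991 rows, with 41 symbols because Pde4d has 2 rows.

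The table holds bulk RNA-seq read counts of pancreatic islets from male C57BL/6 mice. Tg7 mice overexpress the microRNA miR-7a2 in the β-cell, and wild-type (Wt) littermates were the controls. Islets were taken at 2 weeks (2w) and 12 weeks (12w) of age with 3 libraries in each of the 4 groups, and the Wt 12w libraries carry the numbers 1, 2 and 4. The paper describes the Tg7 mice as normoglycaemic at 2w and hyperglycaemic at 12w. At 12w the transgene and high blood glucose were thus present together, and their separate parts were not tested. Each library was a pool from several animals. Because pools were sequenced, p-values measure the spread between pools. Short hairpin rows held few reads (0 to 13 for Mir7-2 in any library) and do not measure mature miR-7a, so the transgene could not be checked in these data.

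Libraries held 11610697 to 17515758 counted reads. Ins1 and Ins2 took 14.8 to 29.99% of reads in Wt 12w libraries and 8.08 to 8.24% in Tg7 12w libraries, against 10.1 to 15.4% and 1.84 to 4.09% at 2w. Of 10 β-cell marker genes, 8 were lower in Tg7 islets at either age. In the Tg7 islets at 12w, 7 of 8 endothelial markers were higher (median log2 fold change 0.98), as were 8 of 8 stellate and fibroblast markers (median 2.92) and 5 of 7 tested pericyte and smooth muscle markers (median 1.22). At 2w these 3 lists had 0, 6 and 0 markers higher by edgeR (for endothelial cells 1 at an unadjusted p under 0.05 and 1 by DESeq2, for pericytes 0 and 0). Without Wt 12w library 4, described below, the 12w counts were 7, 7 and 6. Of all tested genes, 12.5% were called higher and 11.2% lower at 12w, and 6.07% and 4.55% at 2w. The summed endothelial level was 341 to 440 CPM (counts scaled to library size, the usual unit for comparing libraries) in Wt 12w libraries and 704 to 764 in Tg7 12w libraries, and the summed stellate and fibroblast level was 35.9 to 45.2 and 273 to 308 CPM. No endothelial or stellate marker was without reads in any group. In bulk RNA a change in the number of cells of a type and a change in RNA per cell cannot be told apart, and the part that these cell types had in the values below was not tested.

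Library 4 of the Wt 12w group stood apart. Its insulin share was 14.8% against 27.0 and 29.99% in the other Wt 12w libraries. It was the highest of the 3 Wt 12w libraries for 20 of the 39 tested cyclic nucleotide genes and was more than 1.5-fold above both others for 8 of them, where libraries 1 and 2 were so for 1 and 2 genes. All libraries were fitted together and shared the estimate of spread. Leaving out a 12w library could thus change a 2w call although that library is not part of the 2w comparison.

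miR-7a binds messages that pair with its seed, bases 2 to 8 of the mature strand, and its relative miR-7b has the same seed. The mature strands, from RefSeq, are shown because pairing with the seed defines the sites searched below, with the seed in capitals.
miR-7a-5p: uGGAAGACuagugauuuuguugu
miR-7b-5p: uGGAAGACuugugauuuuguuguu

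Matches to this seed were searched on the sense strand of the 3′ untranslated region (UTR). For each gene the annotated coding transcript with the longest 3′ UTR was used. The letters were GTCTTCC, which pairs with the whole seed, or TCTTCCA, which pairs with most of it and ends in an A. The run GTCTTCCA holds both, which overlap, and was counted as 1 longer match. Of the 39 genes that passed the low-count filter, 13 (33.3%) held a match, against 24.9% of 14406 tested genes with an annotated UTR. The longer form with both ends was in 2.56% of these genes and in 3.94% of all tested genes. The UTRs of the cyclic nucleotide genes were long (median 1904 against 1151 bases), and per kb of UTR the matches were about as frequent, 0.211 against 0.209. The sites below are those in genes whose level differed between Tg7 and Wt and that pair with the full seed, and they are in the 3′ UTR exon on the mm9 build, with the match in capitals and up to 30 bases shown on the gene's strand.
Pde4a, chr9:21016356-21016363, plus strand: tctaccacaaaGTCTTCCAtgtctctcctc
Pde1b, chr15:103360009-103360015, plus strand: aacgctctgagGTCTTCCttcaggatgta
Pde1c, chr6:56051219-56051225, minus strand: tacaatgttttGTCTTCCttgattgtagg
Pde5a, chr3:122559522-122559528, plus strand: agtctgtgaacGTCTTCCtgcccaaacaa
Pde7a, chr3:19125900-19125906, minus strand: atgcagactttGTCTTCCtggagtgtatg

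Genes with a match moved in both directions. Of the 5 shown, Pde4a and Pde1b were higher in Tg7 12w islets, Pde5a and Pde7a were lower, and Pde1c was lower at 2w, with values given below. The median log2 fold change of the 13 genes with a match was 0.36 at 2w and 0.09 at 12w, and that of the 26 without a match was 0.13 and 0.39. Over all tested genes the medians were −0.03 and −0.08 with a match and 0.05 and −0.01 without. A match is a run of letters and does not show that the microRNA acted on the message.

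The 3 rows Adcy10, Pde6b and Prkaca-ps1 did not pass the filter on low counts. Adcy10, the soluble cyclase that bicarbonate activates, had 7 reads over the 3 Wt 2w libraries and 0 over the 3 Tg7 2w libraries. With the 0 set to a floor of 3 reads over the group, it was 2.57-fold lower after scaling for library size. That ratio takes the 7 reads as exact and is not a bound. At 12w it had 3 reads in Wt and 8 in Tg7 islets (ratio 1.78, 95% exact counting interval 0.427 to 10.4). Pde6b, a subunit of the rod photoreceptor PDE, had 10 reads in Wt 2w, 2 in Tg7 2w, 1 in Wt 12w and 3 in Tg7 12w islets, and the pseudogene Prkaca-ps1 had none. These intervals cover counting error only. The other 39 rows were tested with edgeR's quasi-likelihood test on 15961 genes, a gene being called at a Benjamini-Hochberg adjusted p under 0.05.

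At 12w, Tg7 islets had more RNA for 3 cyclases, several cAMP- and cGMP-degrading PDEs and the Epac gene Rapgef3. They had less for Pde5a, Pde10a, Pde7a, the PKA subunit Prkar2a and the β-cell Epac, Rapgef4. The calls of Pde10a, Pde7a and Rapgef4 were lost in 4, 9 and 10 of 12 fits with 1 library left out. Those of Pde5a, Prkar2a and Rapgef3 were kept in all 12. Of 39 genes, 18 (46.2%) were called, 13 higher and 5 lower, where 23.6% of all tested genes were called, 12.5% higher and 11.2% lower. At 2w, 7 of 39 (17.9%) were called, 3 higher and 4 lower, against 10.6% of all genes, 6.07% higher and 4.55% lower. The 5 genes called at both ages (Adcy1, Pde1a, Pde1b, Pde5a and Pde10a) had the same direction at both. The median log2 fold change of the 39 was 0.38 at 12w and 0.17 at 2w, against −0.01 and 0.03 for all tested genes. Without Wt 12w library 4 the 12w counts were 15 higher and 3 lower and the 2w counts 5 higher and 8 lower. Upper-quartile scaling gave 13 higher and 2 lower at 12w. Scaling by library size alone, which moved the median of all genes to 0.43 at 12w and 0.19 at 2w, gave 19 higher and 1 lower at 12w and 3 higher and 1 lower at 2w.

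**Figure D1:**
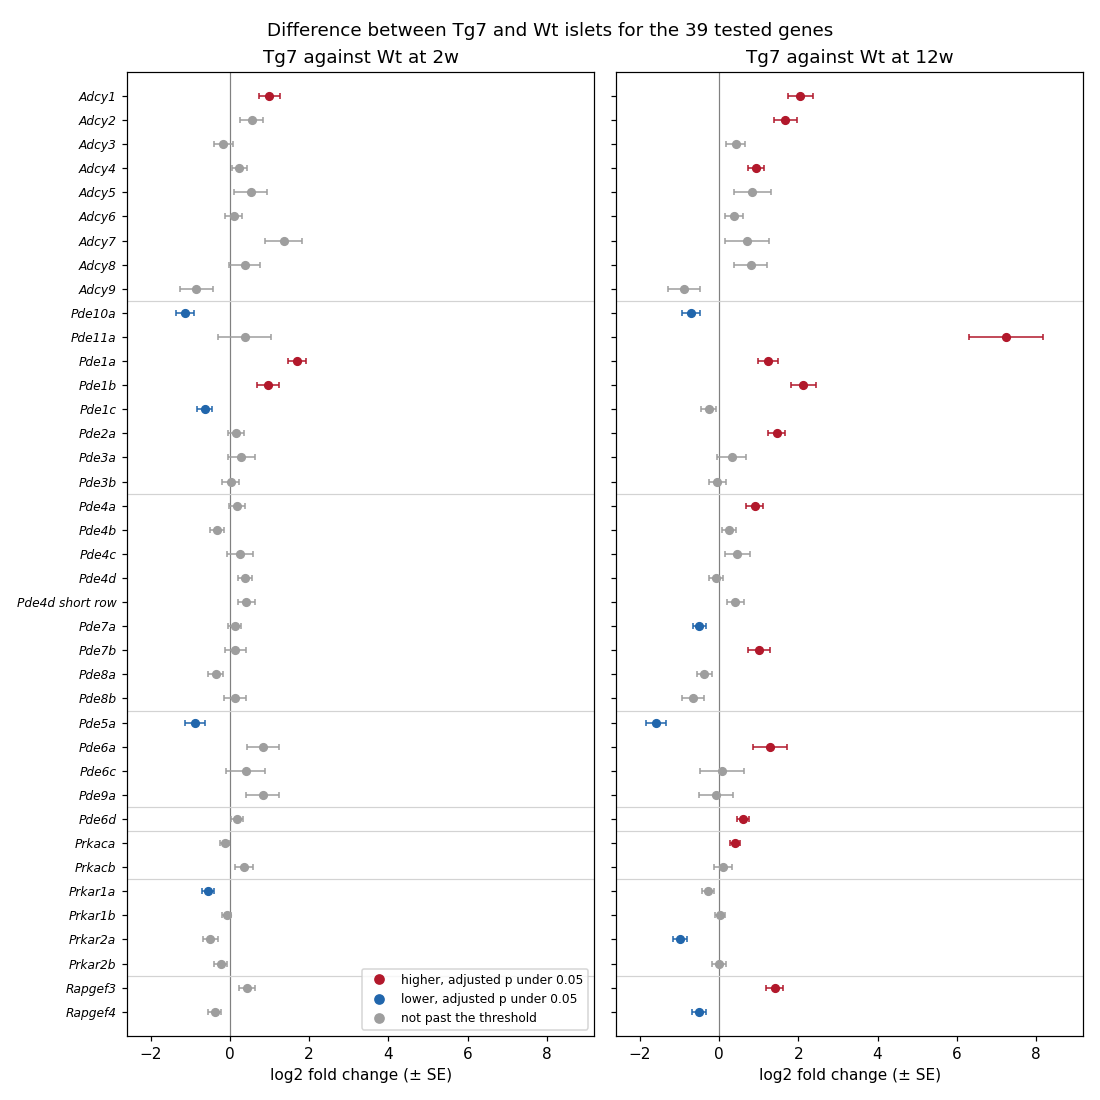
Log2 fold change of Tg7 against Wt islets (horizontal axis, ± SE, 3 libraries a group) for the 39 tested genes at 2w (left) and 12w (right), ordered by role with grey lines between roles. Red and blue points were called higher and lower. At 12w, 18 points are coloured against 7 at 2w, and Pde11a lies far to the right at 12w only.

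The transmembrane cyclases were compared by their RNA level in these islets and by its difference between Tg7 and Wt. Enzyme protein and activity were not measured in these data. By level per kb of exon, Adcy6 led in each group, at 24.7 ± 2.9 (SD, n = 3) CPM per kb in Wt 2w, 26.4 ± 2.7 in Tg7 2w, 15.2 ± 5.9 in Wt 12w and 19.8 ± 0.57 in Tg7 12w islets. That was 45.9 to 53.9% of the summed cyclase level. Adcy9 and Adcy4 followed, and Adcy8, a calcium-stimulated cyclase, was low at 0.217 to 0.376 CPM per kb. The summed cyclase level was 38.4 ± 1.13 CPM per kb in Tg7 12w and 33.5 ± 14.7 in Wt 12w islets. The Wt 12w libraries had 19.7, 31.9 and 49.0 CPM per kb, the last in library 4, against 38.9, 39.2 and 37.1 in Tg7 12w libraries. The groups overlapped through library 4 alone, the other Wt 12w libraries being below all Tg7 12w libraries.

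Adcy1 (ENSMUSG00000020431, chr11:6963492-7078509 on mm9), which calcium and calmodulin stimulate, was higher in Tg7 islets at both ages. At 12w it had 1.89, 0.714 and 1.87 CPM in the 3 Wt libraries and 5.24, 7.14 and 5.89 CPM in the Tg7 libraries. At 2w the values were 7.36, 12.0 and 10.4 CPM in Wt and 18.7, 20.1 and 20.3 CPM in Tg7. The groups did not overlap at either age. The log2 fold change was 2.04 ± 0.31 (SE) at 12w, a 4.13-fold difference (adjusted p = 0.000382), and 0.99 ± 0.26 at 2w (adjusted p = 0.0271). The 2w call was lost without Wt 2w library 1 (0.81) or 3 (1.02) or Tg7 2w library 2 (0.97) or 3 (0.96).

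Adcy2 (ENSMUSG00000021536, chr13:68758920-69138419), which G protein βγ subunits stimulate, had 3.91, 2.94 and 2.00 CPM in Wt 12w libraries and 9.42, 8.91 and 9.44 CPM in Tg7 12w libraries, so each Tg7 library was above each Wt library. The log2 fold change was 1.67 ± 0.28 (adjusted p = 0.00085). At 2w it was 0.55 ± 0.29 (adjusted p = 0.236), and the difference between the ages, 1.12 ± 0.40, was not called (adjusted p = 0.218).

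Adcy4 (ENSMUSG00000022220, chr14:56387895-56402879), a cyclase of the same subfamily as Adcy2, had 10.3, 14.5 and 8.07 CPM in Wt 12w and 23.2, 21.2 and 18 CPM in Tg7 12w libraries. Its log2 fold change was 0.92 ± 0.21 at 12w (adjusted p = 0.00533) and 0.24 ± 0.19 at 2w (adjusted p = 0.474). The endothelial marker sum moved with it, since both were lower in Wt 12w islets than in the other 3 groups. The stellate and fibroblast sum and the pericyte and smooth muscle sum had the same pattern. So did the group means of other genes here, among them Adcy1, Pde1a, Pde1b and Pde4a. The part of these cell types was not tested.

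Adcy9, the least forskolin-sensitive of the transmembrane cyclases, was not called in any of the comparisons. At 2w the Wt libraries had 36.8, 60.7 and 58.9 CPM and the Tg7 libraries 30.7, 28.6 and 27.6 CPM, with a log2 fold change of −0.85 ± 0.41 (adjusted p = 0.198). At 12w the Wt libraries had 28.1, 35.2 and 125 CPM, the last in library 4, and the Tg7 libraries 34, 36.1 and 32.6 CPM. Library 4 was the only one far from the rest, and without it the 2w estimate of −0.85 was called (adjusted p = 0.00339), while the 12w estimate became 0.11. Without Wt 12w library 1 the 12w estimate was −1.26 and called. The other 5 transmembrane cyclases, Adcy3 and Adcy5 to Adcy8, had estimates from 0.38 to 0.83 at 12w and from −0.17 to 1.36 at 2w, with 0 of 5 called by edgeR. At an unadjusted p under 0.05 there were 0 of 5 at 12w and 1 at 2w, and DESeq2 called 0 and 1. Adcy3, whose exons share 1380 bases with Cenpo on the other strand, was called at 12w without Wt 12w library 2 (0.71) and Adcy7 at 2w without Wt 12w library 4 (1.36).

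**Figure D2:**
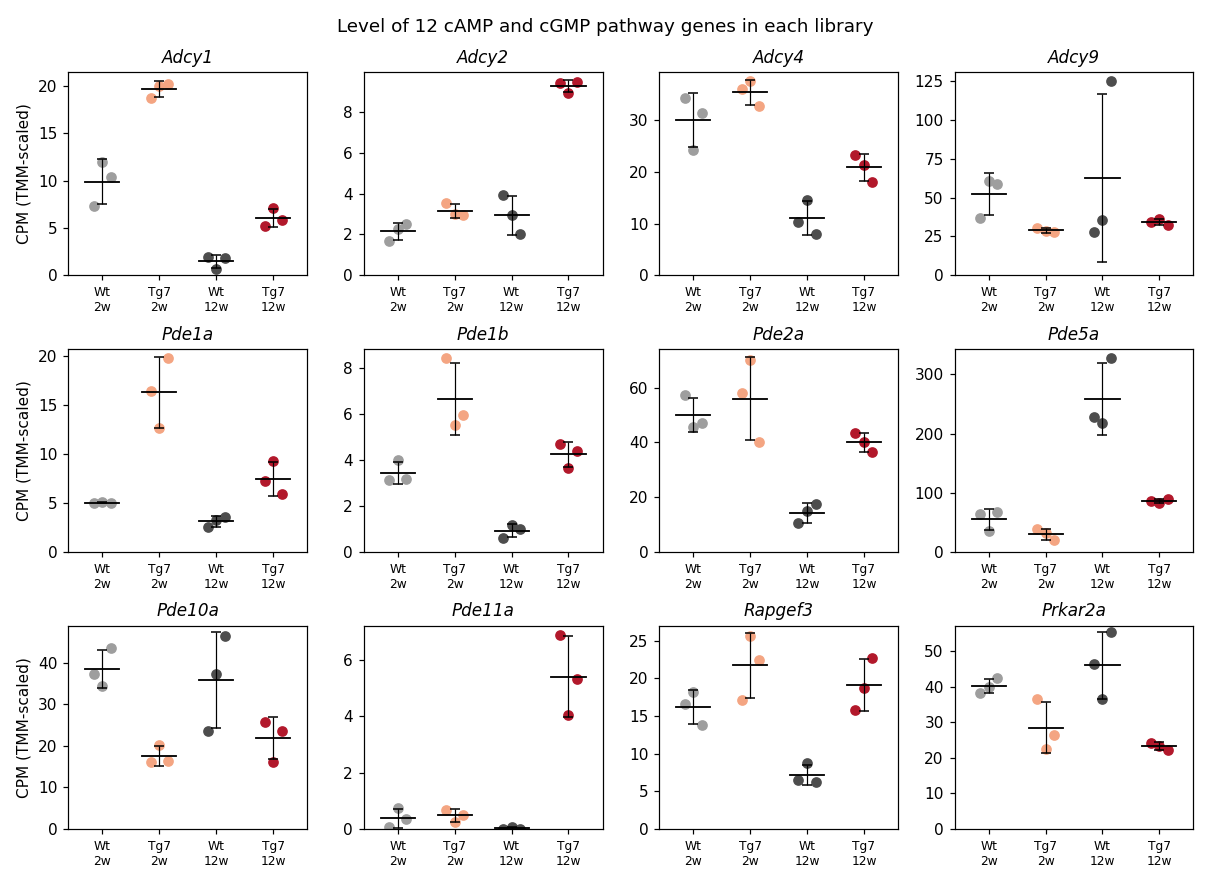
CPM (vertical axes, linear from 0) of 12 genes in each library, with points for libraries and black bars for the group mean ± SD (n = 3). Adcy1, Pde1a and Pde1b are higher in Tg7 at both ages, Pde11a is read in Tg7 12w libraries at 4.04 to 6.88 CPM, and Wt 12w library 4 gives the high point of Adcy9.

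**Figure D3:**
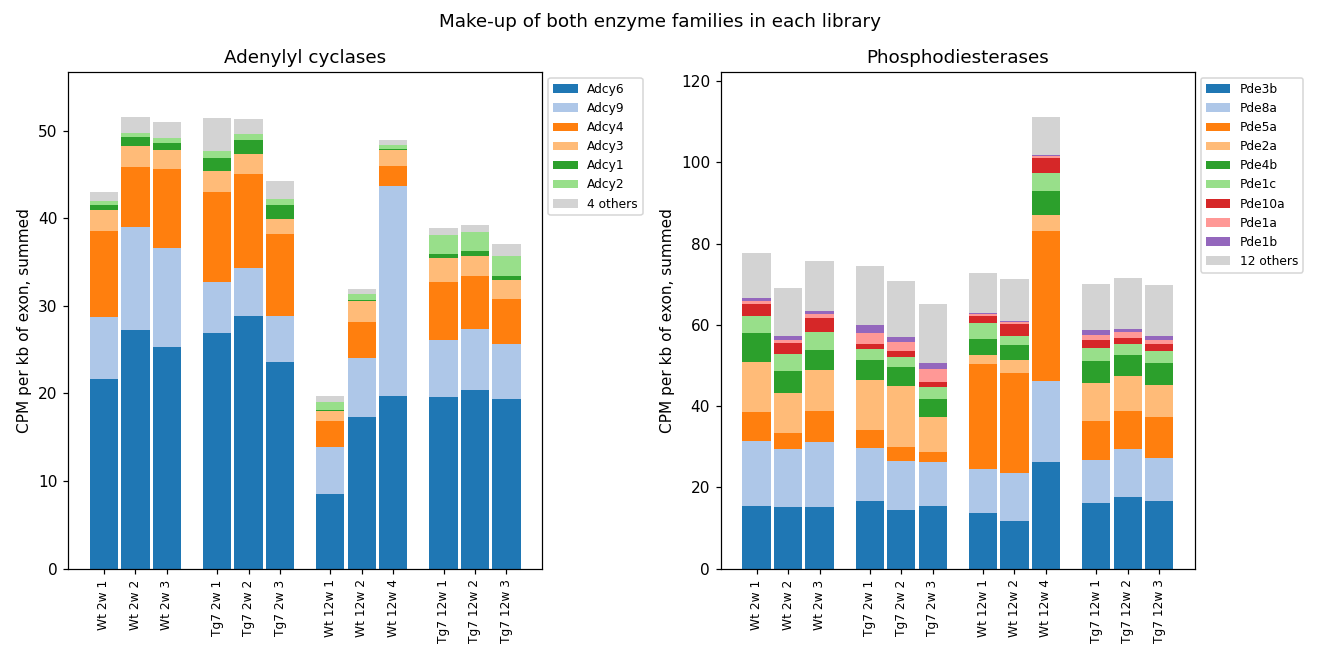
Summed level of the adenylyl cyclases (left) and the PDEs (right) in each library, in CPM per kb of exon, stacked by gene. Adcy6 is the widest cyclase band in all but 1 library, Wt 12w library 4, and the Pde5a band fills 34.4% of the PDE bar in Wt 12w libraries and 13.8% in Tg7 12w libraries.

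PDEs that split both nucleotides showed the most calls at 2w. Of 8 tested genes of this class, 4 were called at 2w and 5 at 12w, where 10.6% and 23.6% of all tested genes were called. The calcium- and calmodulin-activated PDE1 enzymes did not move as one, since Pde1a and Pde1b were higher in Tg7 islets and Pde1c was lower at 2w. The summed level of all PDEs was 70.5 ± 0.957 CPM per kb in Tg7 12w and 85.1 ± 22.6 in Wt 12w islets, and 70.2 ± 4.66 and 74.2 ± 4.54 at 2w, and the groups overlapped at both ages. Library 4 held the high PDE sum of the Wt 12w group, 111 CPM per kb against 72.9 and 71.3 in the other Wt 12w libraries.

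Pde1a (ENSMUSG00000059173, chr2:79674610-79969632) had 5.04, 5.08 and 5.0 CPM in the Wt 2w libraries and 16.4, 12.6 and 19.8 CPM in the Tg7 2w libraries. At 12w it had 2.52, 3.25 and 3.6 CPM in Wt and 7.22, 9.24 and 5.89 CPM in Tg7. The groups were apart at both ages, with log2 fold changes of 1.69 ± 0.23 (3.22-fold, adjusted p = 0.000551) and 1.23 ± 0.25 (adjusted p = 0.00266). Both calls held under every alternative fit and with each library left out.

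Pde1b (ENSMUSG00000022489, chr15:103333465-103360483) had 0.63, 1.19 and 1.0 CPM in Wt 12w libraries and 4.68, 3.65 and 4.41 CPM in Tg7 12w libraries. The log2 fold change was 2.13 ± 0.32 at 12w, or 4.37-fold (adjusted p = 0.000345). At 2w the libraries had 3.14, 3.98 and 3.19 CPM against 8.43, 5.52 and 5.96 CPM, with a log2 fold change of 0.95 ± 0.28 (adjusted p = 0.0447). That 2w call was lost in 8 of 12 fits with 1 library left out (0.75 to 1.06 over all 12) and was kept without Tg7 2w library 2 and without any 1 of the 3 Wt 12w libraries.

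Pde1c, the PDE1 with the highest affinity for cAMP, had 53.2, 51.4 and 57.9 CPM in Wt 2w libraries and 34.9, 31.0 and 38.6 CPM in Tg7 2w libraries, which did not overlap. The log2 fold change was −0.63 ± 0.19 (adjusted p = 0.0473), and the call was kept in the 3 fits without 1 of the Wt 12w libraries and lost in the other 9 (−0.73 to −0.56 over all 12). At 12w the Wt libraries had 49.4, 29.1 and 56.0 CPM and the Tg7 libraries 39.6, 34.6 and 37.7 CPM, which overlapped (−0.26 ± 0.19, adjusted p = 0.358). That estimate was −0.50 and called without Wt 12w library 2 and −0.06 (adjusted p = 0.855) without library 4.

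Pde2a (ENSMUSG00000030653, chr7:108570212-108661340), which cGMP stimulates to split cAMP, had 10.5, 15.1 and 17.7 CPM in Wt 12w libraries and 43.6, 40.2 and 36.7 CPM in Tg7 12w libraries. All Tg7 libraries were higher, by a log2 fold change of 1.46 ± 0.21 or 2.75-fold (adjusted p = 0.00029). At 2w, Wt libraries had 57.1, 45.5 and 47.2 CPM and Tg7 libraries 58.0, 70.0 and 40.0 CPM, with overlapping values (log2 fold change 0.16 ± 0.20, adjusted p = 0.658). The difference between the ages was 1.30 ± 0.29 with adjusted p = 0.051, just short of the threshold. It was called without Wt 12w library 4 (1.48) or Tg7 2w library 2 (1.49), and by DESeq2 (1.29). Library size alone, upper-quartile scaling, no filter, a stricter filter and the replicate number as a block also gave a call (1.30 to 1.61). As for Adcy4, the lowest group was Wt 12w, where the endothelial, stellate and pericyte marker sums were also lowest.

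Pde11a (ENSMUSG00000075270, chr2:75827198-76176831) showed the widest contrast. The Wt 12w libraries had 0, 1 and 0 reads and the Tg7 12w libraries 122, 73 and 93 reads, or 6.88, 4.04 and 5.32 CPM. The ratio of the summed reads, scaled for library size, was 192 (95% exact counting interval 34.2 to 7611). The 2w libraries had 0.0593, 0.737 and 0.372 CPM in Wt and 0.694, 0.26 and 0.497 CPM in Tg7, which overlapped (log2 fold change 0.37 ± 0.68). The 12w difference was called (adjusted p = 9.46e-05). It was the only 1 of 39 genes called for a difference in the Tg7 effect between the ages (log2 6.87 ± 1.23, adjusted p = 0.0153). Of all tested genes, 1.18% were called for that difference. Pde11a passed the low-count filter only through the Tg7 12w libraries, where it was high, so its calls are not independent of that choice. The fitted log2 value of a gene with 1 read in a group depends on the prior count and is not a bound. The call for the difference was lost without Wt 2w library 2 (6.13) or Tg7 12w library 1 (6.69).

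Pde10a, a PDE best known from striatal neurons, had 37.3, 34.5 and 43.6 CPM in Wt 2w and 16.1, 20.2 and 16.3 CPM in Tg7 2w libraries. The groups did not overlap and the log2 fold change was −1.14 ± 0.23, or 2.20-fold lower (adjusted p = 0.0066). At 12w the values were 23.6, 37.2 and 46.5 CPM against 25.8, 16.2 and 23.5 CPM, which overlapped. The 12w log2 fold change was −0.72 ± 0.23 (adjusted p = 0.035), and its call was lost without Wt 12w library 2 (−0.70) or 4 (−0.49) or Tg7 12w library 2 (−0.54) or 3 (−0.78).

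Pde3b, the cGMP-inhibited PDE through which insulin lowers cAMP in fat cells and which is abundant in β-cells, did not pass the test in any comparison. It had 107, 105 and 104 CPM in Wt 2w and 115, 98.7 and 106 CPM in Tg7 2w libraries. At 12w the Wt libraries had 94.5, 81.3 and 182 CPM and the Tg7 libraries 111, 122 and 115 CPM, and the log2 fold change was −0.04 ± 0.22 (adjusted p = 0.917). The high value was library 4, without which the estimate was 0.41 and called (adjusted p = 0.0132). Pde3a, the other PDE3, had estimates of 0.29 and 0.32 at 2w and 12w and was not called.

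Among PDEs specific to cAMP, 3 of 9 rows (33.3%) were called at 12w, where 23.6% of all tested genes were called. At 2w 0 were called by edgeR (1 at an unadjusted p under 0.05, and 0 by DESeq2), against 10.6% of all tested genes. Pde4a, of the rolipram-sensitive PDE4 family, had 8.95, 7.70 and 4.73 CPM in Wt 12w and 13.3, 12.9 and 13.0 CPM in Tg7 12w libraries, and each Tg7 library was higher (log2 fold change 0.89 ± 0.22, adjusted p = 0.00943). At 2w its estimate was 0.18 ± 0.21. The other PDE4 rows were not called at either age, with 12w estimates from −0.07 to 0.46. Pde4b was called at 12w without Wt 12w library 4 (0.50), and Pde4c without Wt 12w library 2 (0.90). The second Pde4d row, ENSMUSG00000074661 at chr13:110744317-110746171, lies just beyond the end of the first, and its log2 fold changes were 0.42 at 2w and 0.41 at 12w.

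The PDE7 enzymes, which rolipram does not inhibit, went opposite ways. Pde7b had 2.52, 4.52 and 3.47 CPM in Wt 12w and 6.77, 7.58 and 7.04 CPM in Tg7 12w libraries (log2 fold change 1.01 ± 0.27, adjusted p = 0.0153). This call was lost without Tg7 12w library 2 (0.96, adjusted p = 0.0539) and with the replicate number as a block (0.95, adjusted p = 0.0537). Pde7a had 18.5, 22.0 and 16.5 CPM in Wt 12w and 11.4, 15.9 and 13.0 CPM in Tg7 12w libraries (log2 fold change −0.50 ± 0.16, adjusted p = 0.0381). Its call was kept in 3 of 12 fits with 1 library left out, those without Wt 12w library 1 or 4 or Tg7 12w library 2 (−0.63 to −0.37 over all 12). No library of either gene overlapped between the 12w groups. Pde7a shares 48 bases of exon with a gene on the other strand, Gm16093, and no source used here says if the counting used strand.

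Pde8a, a high-affinity cAMP PDE, had the highest level per kb of the cAMP-specific PDEs called in no comparison. It had 43.6, 47.3 and 80.2 CPM in Wt 12w and 43.1, 47.4 and 42.3 CPM in Tg7 12w libraries (log2 fold change −0.37 ± 0.19, adjusted p = 0.177). The high Wt value was library 4, without which that estimate was −0.04 (adjusted p = 0.855), while without Wt 12w library 1 it was −0.55 and called. At 2w it had 64.3, 57.5 and 64.7 CPM in Wt and 52.9, 48.8 and 44.1 CPM in Tg7 libraries, which did not overlap. The 2w estimate of −0.36 ± 0.19 (adjusted p = 0.239) was called without Wt 12w library 4 (adjusted p = 0.0264). Pde8b had an estimate of −0.66 ± 0.29 at 12w, which was −0.89 and called without Wt 12w library 2.

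Among cGMP-specific enzymes, Pde5a (ENSMUSG00000053965, chr3:122432076-122562292), the target of sildenafil, was lower in Tg7 islets. It had 228, 219 and 328 CPM in Wt 12w libraries and 85.7, 83.7 and 89.5 CPM in Tg7 12w libraries, so all Tg7 libraries were below all Wt libraries. The log2 fold change was −1.58 ± 0.25, or 3.0-fold lower (adjusted p = 0.00053), and the call held with each library left out (−1.69 to −1.37). At 2w the values were 64.3, 35.5 and 67.5 CPM in Wt and 38.4, 32.2 and 20.4 CPM in Tg7, where 1 Tg7 library lay above the lowest Wt library. The 2w log2 fold change was −0.88 ± 0.25 (adjusted p = 0.041), and this call was lost in 7 of 12 fits with 1 library left out (−1.12 to −0.67). It was kept without Wt 2w library 2, Tg7 2w library 1 or any 1 of the Wt 12w libraries. In Wt 12w islets Pde5a was the PDE with the highest level per kb, 29.2 ± 6.8 CPM per kb, and held 34.4 ± 1.04% of the summed PDE level. Its share was 13.8 ± 0.638% in Tg7 12w, 8.39 ± 2.28% in Wt 2w and 4.83 ± 1.17% in Tg7 2w islets.

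Pde6a, the other rod photoreceptor subunit, was low, with 1.51, 0.476 and 1.2 CPM in Wt 12w and 2.14, 3.15 and 2.29 CPM in Tg7 12w libraries (log2 fold change 1.28 ± 0.43, adjusted p = 0.0468). This call was kept only without Tg7 2w library 1 or 3 or Wt 12w library 1, and the estimate ranged from 0.91 to 1.54. Pde9a, a high-affinity cGMP PDE, had 0.628 to 1.11 CPM per kb and Pde6c, of cones, 0.229 to 0.768, and neither was called in any comparison. Pde6d, a prenyl-binding protein that carries PDE6 and other lipid-modified proteins and is no PDE itself, had 26.2, 32.4 and 23.8 CPM in Wt 12w and 42.1, 43.9 and 40.1 CPM in Tg7 12w libraries (log2 fold change 0.61 ± 0.15, adjusted p = 0.00952).

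PKA is a tetramer of regulatory subunits, which bind cAMP, and catalytic subunits, which they hold inactive. The regulatory subunit Prkar1a had the highest level per kb of all 39 genes in each group, 135 ± 13 CPM per kb in Wt 2w and 92.4 ± 9.5 in Tg7 2w islets. Of the 4 regulatory genes, Prkar2a was lower in Tg7 islets at 12w and Prkar1a at 2w. Of the 2 catalytic genes, Prkaca was higher at 12w.

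Prkar2a (ENSMUSG00000032601, chr9:108594474-108651843), a subunit that anchoring proteins hold at membranes, had 46.3, 36.5 and 55.3 CPM in Wt 12w and 24.3, 23.4 and 22.1 CPM in Tg7 12w libraries. The groups were apart by a log2 fold change of −0.98 ± 0.18, or 1.98-fold (adjusted p = 0.00158), and the call was kept with each library left out. With library size alone it was −0.55 and not called. At 2w the libraries had 38.2, 40.0 and 42.3 CPM against 36.5, 22.5 and 26.5 CPM, also apart, at −0.49 ± 0.18 (adjusted p = 0.0922), and this was called without Tg7 2w library 1 (−0.71) or Wt 12w library 4 (−0.50).

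Prkar1a had 677, 562 and 630 CPM in Wt 2w and 453, 447 and 375 CPM in Tg7 2w libraries, which did not overlap (log2 fold change −0.55 ± 0.15, adjusted p = 0.0313). The call was lost in 6 of 12 fits with 1 library left out (−0.63 to −0.48), those without Wt 2w library 1 or 3, Tg7 2w library 2 or 3, or Tg7 12w library 2 or 3. At 12w it was −0.28 ± 0.15 (adjusted p = 0.20). Prkar1b, the highest of the regulatory genes called in no comparison, had 32.6 to 42.2 CPM per kb in the group means and estimates of −0.08 and 0.02, and 341 bases of its exons are shared with Gm15672 on the same strand. Prkar2b had estimates of −0.24 at 2w and −0.00 at 12w.

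Prkaca had 88.7, 109 and 114 CPM in Wt 12w and 137, 139 and 135 CPM in Tg7 12w libraries, all Tg7 libraries being higher (log2 fold change 0.40 ± 0.12, adjusted p = 0.0266). The call was lost without Wt 12w library 1 (0.27) or any 1 of the Tg7 12w libraries (0.42, 0.39 and 0.41). Prkacb had 390, 361 and 770 CPM in Wt 12w and 553, 543 and 525 CPM in Tg7 12w libraries (log2 fold change 0.09 ± 0.22, adjusted p = 0.816). Without library 4, the high one, the estimate was 0.53 and called (adjusted p = 0.00357). At 2w Prkacb had 324, 287 and 314 CPM against 425, 406 and 355 CPM (log2 fold change 0.36 ± 0.22, adjusted p = 0.326, and 0.024 without Wt 12w library 4). In shares of the summed PKA level, Prkacb was 18.6 ± 0.125% in Wt 2w and 27.4 ± 0.404% in Tg7 2w islets, and Prkar1a was 44.7 ± 1.15% and 34.9 ± 0.426%.

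The Epac genes differed in direction at 12w. Rapgef3 (Epac1; ENSMUSG00000022469, chr15:97575384-97598403), widely expressed and high in endothelium, had 6.55, 8.73 and 6.27 CPM in Wt 12w and 15.8, 18.8 and 22.7 CPM in Tg7 12w libraries. The groups did not overlap and the log2 fold change was 1.41 ± 0.21, or 2.65-fold (adjusted p = 0.000342). At 2w it was 0.42 ± 0.20 (adjusted p = 0.193). Its exons share 351 and 236 bases with Gm16256 and Gm16257 on the other strand. As for Adcy4 and Pde2a, its lowest group was Wt 12w. There the endothelial, stellate and pericyte marker sums were also lowest, and their part was not tested.

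Rapgef4 (Epac2; ENSMUSG00000049044, chr2:71819272-72095531), the form that β-cells use in exocytosis, had 123, 136 and 217 CPM in Wt 12w and 117, 114 and 106 CPM in Tg7 12w libraries. No library overlapped, but the log2 fold change of −0.50 ± 0.17 only just passed (adjusted p = 0.0496). The call was kept in 2 of 12 fits with 1 library left out, those without Wt 12w library 1 or 2, and without library 4 the estimate was −0.21. At 2w the libraries had 144, 123 and 131 CPM against 98.7, 107 and 98.2 CPM, apart but not called (−0.39 ± 0.17, adjusted p = 0.165). That 2w estimate was called without Wt 12w library 4 (adjusted p = 0.011). It shares 337 exon bases with BB114351 on the other strand. Rapgef3 was 5.17 ± 1.84% of the summed Epac level in Wt 12w and 16.1 ± 3.14% in Tg7 12w islets.

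Several of these genes differed between 2w and 12w in Wt islets. From 2w to 12w, 10 of 39 genes (25.6%) were called, 2 higher and 8 lower, where 15.8% of all tested genes were called, 7.9% higher and 7.91% lower. The median log2 fold change was −0.27, against 0.04 for all tested genes. Pde5a rose 4.63-fold (log2 fold change 2.21 ± 0.26, adjusted p = 8.75e-05), from the 2w values given above to 219 to 328 CPM. Prkacb rose by 0.72 ± 0.22 (adjusted p = 0.0423), a call lost without Wt 12w library 4 (0.28) and in 8 more of the 12 fits with 1 library left out. It was kept only without Wt 12w library 1 or 2 or Tg7 2w library 3.

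Adcy1 fell with age (−2.74 ± 0.31, 6.70-fold lower, adjusted p = 7.19e-05). Pde1b (−1.82), Pde2a (−1.78), Adcy4 (−1.45), Rapgef3 (−1.17) and Pde4a (−1.09) also fell, and these 6 calls held with each library left out. Adcy5, which calcium inhibits, had 3.56, 6.63 and 8.25 CPM in Wt 2w and 2.02, 1.59 and 1.60 CPM in Wt 12w libraries (−1.84 ± 0.46, adjusted p = 0.0161), a call lost without Wt 2w library 2 (−1.79) or 3 (−1.56). Adcy6 had 130, 164 and 152 CPM against 51.3, 104 and 118 CPM (−0.70 ± 0.22, adjusted p = 0.0469). Its call was kept only without Tg7 2w library 1 or 3 or Wt 12w library 4, with estimates from −0.94 to −0.41. In the same comparison all 8 endothelial markers and 6 of 8 stellate and fibroblast markers were lower, and their part in these values was not tested. Without Wt 12w library 4 there were 17 calls, 3 higher and 14 lower, and Adcy9 was called at −0.72 where its estimate with all libraries was 0.28. With library size alone, which moved the median of all genes to −0.35, there were 1 higher and 19 lower. Pde11a had 18 reads over the Wt 2w libraries and 1 over the Wt 12w libraries (scaled ratio 0.077, 95% exact counting interval 0.00185 to 0.488), and was not called (adjusted p = 0.0578). It was called by DESeq2, with library size alone, with no filter and without Wt 2w library 1. These values share the Wt libraries with the Tg7 comparisons and are no separate evidence on them.

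Upstream of the cyclases, a list of Gs-coupled receptors, G protein subunits and the regulators Rgs2, Rgs4 and Rgs16 had 21 tested genes. Of these, 6 were higher and 4 lower at 12w and 2 higher and 3 lower at 2w (median log2 fold change 0.19 and 0.13). Of all tested genes, 23.6% and 10.6% were called. The list gave 5 higher and 4 lower at 12w and 3 higher and 5 lower at 2w without Wt 12w library 4. Glp1r, the receptor of the incretin GLP-1, had 29.5, 26.8 and 137 CPM in Wt 12w and 20.1, 20.4 and 20.8 CPM in Tg7 12w libraries (−1.67 ± 0.49, adjusted p = 0.0238), and without library 4 it was −0.45 and not called. The 12w call was also lost without any 1 of the Tg7 12w libraries (−1.68 to −1.62). At 2w Glp1r had 50.3, 62.8 and 47.4 CPM against 25.2, 15.2 and 12.0 CPM (−1.61 ± 0.49, adjusted p = 0.0499), and this was lost without any 1 of the Wt 2w or Tg7 12w libraries or Tg7 2w library 2 or 3 (−1.70 to −1.41). Vipr1, a receptor of vasoactive intestinal peptide, fell by 1.09 on the log2 scale at 2w and by 1.72 at 12w (adjusted p = 0.00442 and 6.67e-05), from 77.0 ± 17.6 to 23.4 ± 1.92 CPM at 12w. Adcyap1r1, the PACAP receptor, rose by 1.32 and 3.03 (adjusted p = 0.0102 and 3.17e-05), to 4.68 ± 0.702 CPM in Tg7 12w islets, and its 2w call was lost without Wt 2w library 1 (1.21).

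The glucagon receptor gene Gcgr had 48.6, 60.9 and 50.1 CPM in Wt 2w and 15, 9.48 and 19.0 CPM in Tg7 2w libraries (−1.87 ± 0.22, adjusted p = 0.000141). At 12w its estimate was 0.37 ± 0.21, and the difference between the ages was itself called (2.24 ± 0.30, adjusted p = 0.0022). Gpr119, a Gs-coupled lipid receptor, was higher at 12w (1.12 ± 0.24, adjusted p = 0.0043). Rgs16 and Rgs2, whose products switch G proteins off, were higher (1.73 ± 0.37, adjusted p = 0.00424) and lower (−1.22 ± 0.20, adjusted p = 0.000556) at 12w, and for Rgs2 the difference between the ages was called (−1.42 ± 0.28, adjusted p = 0.0246).

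Downstream, PKA inhibitors and anchoring proteins had 1 higher and 2 lower of 13 tested at 12w and 2 higher and 1 lower at 2w (medians −0.10 and −0.16). Beside this list and those after it, 23.6% of all tested genes were called at 12w and 10.6% at 2w. Akap6, which anchors PKA at the nuclear envelope, was lower at both ages (−0.91 ± 0.21 and −1.08 ± 0.21, adjusted p = 0.012 and 0.00195), and its 2w call was lost without Wt 2w library 1 (−0.84). CREB family members and coactivators had 0 higher and 1 lower of 10 tested by edgeR at either age (medians −0.20 at 2w and −0.17 at 12w). They had 2 lower at 2w and 1 higher and 1 lower at 12w without Wt 12w library 4. Epac effectors had 0 of 6 called at 2w by edgeR (2 at an unadjusted p under 0.05, and 0 by DESeq2) and 2 higher at 12w (medians −0.07 and −0.24). The 12w median was 0.02 without Wt 12w library 4, with 2 higher, and 1 was then lower at 2w.

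The list of cGMP synthesis genes, natriuretic peptide receptors and cGMP-dependent kinases had 10 tested genes. Of these, 5 were higher and 1 lower at 12w and 3 higher at 2w (medians 1.05 and 0.55). The share of all tested genes called was 23.6% at 12w and 10.6% at 2w. Gucy1a3 and Gucy1b3, the subunits of the nitric oxide receptor, rose by 1.89 ± 0.15 and 1.17 ± 0.23 at 12w (adjusted p = 1.7e-06 and 0.00233), and Gucy1a3 also at 2w (0.87 ± 0.14), with a called difference between the ages (1.02 ± 0.21, adjusted p = 0.0273). Gucy1a3 had 10.2, 10.9 and 10.9 CPM in Wt 12w and 43.8, 37.3 and 37.8 CPM in Tg7 12w libraries, with no overlap. Prkg2, a cGMP-dependent kinase, rose by 3.10 ± 0.37 at 2w and 3.07 ± 0.39 at 12w (adjusted p = 0.000162 and 8.62e-05), from 0.897 ± 0.106 to 7.74 ± 1.46 CPM at 2w. The receptor cyclases Npr2 (1.11 ± 0.16) and Gucy2c (1.44 ± 0.22) were higher at 12w (adjusted p = 0.000219 and 0.000433). Npr2 was also higher at 2w (0.51 ± 0.15, adjusted p = 0.0489), a call kept without Tg7 2w library 1 or any 1 of the Wt 12w libraries and lost in the other fits with 1 library left out (0.41 to 0.57). Without Wt 12w library 4 the list had 5 higher and 0 lower at 12w and 5 higher at 2w.

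**Figure D4:**
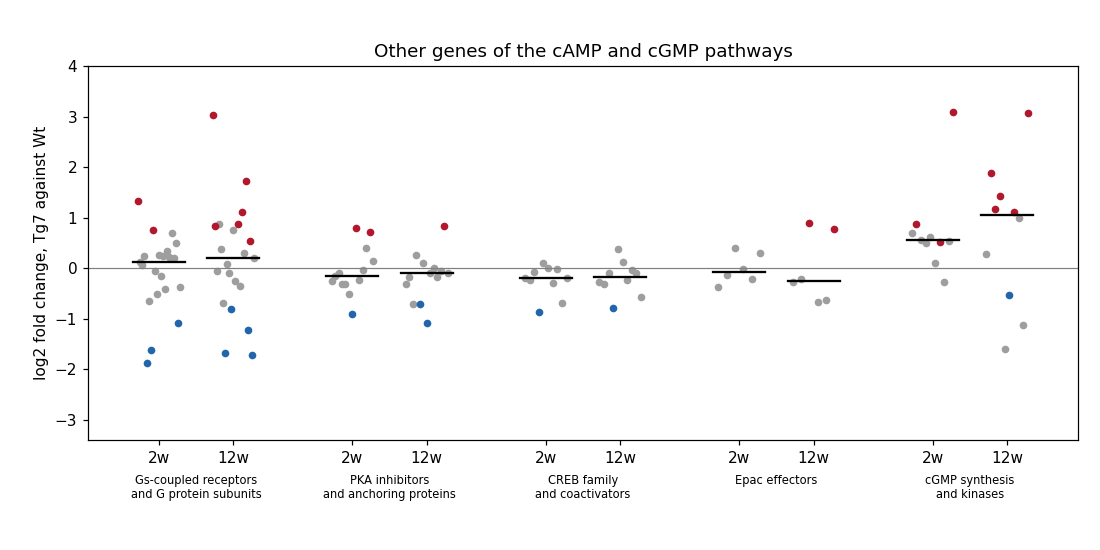
Log2 fold change of Tg7 against Wt islets (vertical axis) for each tested gene of 5 lists of other cAMP and cGMP pathway genes at 2w and 12w. Points are genes, red and blue for those called higher and lower and grey for the rest, and black lines are list medians, which for cGMP synthesis and kinases are 0.55 at 2w and 1.05 at 12w.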

How the data were processed

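Bulk RNA-seq was done on islets, 12 libraries in all. According to the study's methods and the labels, the authors trimmed the reads (Trimmomatic), aligned them to mm9 with TopHat2 2.0.11 and counted reads per gene with featureCounts, and the deposited values are these raw counts. No source used here says if the counting used strand. Rows without a symbol were kept in the totals. From the counts, genes were filtered (edgeR's filterByExpr, minimum count 10, minimum total 15), scaled by TMM and fitted with edgeR 4.0.16 (quasi-likelihood, 1 mean for each of 4 groups), with Benjamini-Hochberg adjustment over 15961 genes at 0.05. Folds are log2 estimates of edgeR. CPM are TMM-scaled, and levels of different genes were compared per kb of annotated exon. The scripts were tested on simulated data. Depth is given as total counts, and intervals for low counts cover counting error only.

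Alternatives were DESeq2 1.42.0, other scalings and filters, each age alone, the replicate number as a block and leaving out each library. Named were all genes called in any comparison, in each role the highest of those called in none, all rows below the filter, and listed pathway genes called at either age with at least a 2-fold estimate. A few other genes were named after their values were seen. Members and lists were chosen with earlier results of these data known.

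Groups and replicate numbers come from sample titles. Same-numbered libraries did not deviate together (residual correlations −0.167 to −0.0112), so numbers were not used as pairs. Marker lists also covered alpha, delta, acinar, ductal, macrophage, Schwann and lymphocyte genes. Of the lymphocyte list 1 of 7 genes was tested. At 12w these lists had 1, 0, 0, 2, 0, 2 and 0 genes called higher and 0, 0, 0, 0, 1, 0 and 0 called lower, and at 2w 1, 0, 0, 0, 1, 0 and 0 higher and none lower (edgeR). Where a list had no call, 0 to 4 of its genes had an unadjusted p under 0.05 and DESeq2 called 0 to 2. Over all tested genes, edgeR called 23.6% at 12w and 10.6% at 2w.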

Additional observations from a re-analysis of the deposited data

Results flagged for a closer look

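Of the 39 tested genes, Pde11a differed between the ages in its Tg7 effect by a test of the difference itself (12w minus 2w, log2 6.87 ± 1.23, adjusted p = 0.0153, edgeR). The value rests on 288 reads over the Tg7 12w libraries and 1 read over the Wt 12w libraries, and the 3 Tg7 12w libraries were all above the other 9. The gene passed the low-count filter only through these Tg7 12w libraries, so its p-value is no separate support.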

How the results depend on the processing

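At 12w the 18 calls stayed between 13 and 20 under every alternative scaling, filter, tool and age split, and between 13 and 19 with 1 library left out, and 11 of them (Adcy1, Adcy2, Adcy4, Pde11a, Pde1a, Pde1b, Pde2a, Pde4a, Pde5a, Pde6d and Rapgef3) were called in all of these fits. At 2w the 7 calls became 4 with library size alone and 2 to 13 with 1 library left out, and 2 (Pde10a and Pde1a) were called throughout. They were 2 without Wt 2w library 1 or 3 or Tg7 2w library 3, 3 without Tg7 2w library 2 or Tg7 12w library 2 or 3, 4 without Tg7 12w library 1 and 13 without Wt 12w library 4. Library size alone removed the 2w calls of Pde1c, Pde5a and Prkar1a, and upper-quartile factors that of Pde1c. Each age alone removed that of Pde5a, and no filter and the replicate block that of Pde1b. For the difference between the ages the 1 call became 2 with DESeq2, upper-quartile factors, no filter and the stricter filter and 3 with library size alone, and 0 to 4 with 1 library left out, 0 without Wt 2w library 2 or Tg7 12w library 1. In Wt islets the 10 calls with age became 20 with library size alone and 7 to 17 with 1 library left out, and 7 were called throughout. Library size alone removed the age call of Prkacb, and the replicate block those of Adcy5 and Prkacb. Across all genes, library size alone gave 5198 higher and 360 lower at 12w against 1989 and 1783, 1670 and 317 at 2w against 969 and 726, and 325 and 3795 with age against 1261 and 1263, and upper-quartile factors gave 2418 and 1317 at 12w. The calls over all genes were 1695 at 2w (2617 with DESeq2, 2630 with the replicate block), 188 for the difference (601 with DESeq2, 347 with library size alone, 420 with no filter, 502 with the block) and 2524 with age (4120 with library size alone, 3817 with the block). With 1 library left out they were 754 to 3071 at 2w, 2417 to 4036 at 12w, 82 to 579 for the difference and 1336 to 4020 with age.

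With the replicate number as a block, Wt 12w library 4, the only one with its number, no longer informs the comparison, and the counts were 11 at 2w, 18 at 12w, 3 for the difference and 16 for age in Wt islets. The block turned Pde3b at 12w to 0.41 and Adcy9 with age to −0.70, both called, as leaving that library out did. With 1 library left out these values ranged from −0.26 to 0.41 and from −0.72 to 0.63. No estimate called in the main fit changed sign under any alternative. Estimates not called in the main fit changed sign 43 times under other settings, 19 of them with library size alone. They did so 73 times with a library left out. The changes of Pde3b and Adcy9 given above are among these. The cause of these changes was not tested. The 3 pools in a group limit the precision of every value.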
